A study of Mus musculus with 2 samples.

Results

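Tac1-positive enterochromaffin cells are gut endocrine cells that make serotonin together with the tachykinin precursor Tac1. They were examined here by single-cell RNA-Seq, among Tomato-positive epithelial cells of the mouse small intestine. Members were selected on their transcripts. A barcode had to hold at least 3 UMIs of Tac1 that made up at least 0.1% of its UMIs, fewer than 3 UMIs of the progenitor factor Neurog3, and less than 1% of its UMIs from each of the 7 hormones Gip, Gcg, Pyy, Cck, Sst, Ghrl and Nts. A UMI, or unique molecular identifier, marks 1 captured transcript molecule. Barcodes under 500 genes or 1000 UMIs, or with mitochondrial transcripts above 25%, were set aside beforehand, and those left are called kept barcodes below. This gave 479 members among 8761 kept barcodes, of 12591 deposited ones.

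There were 2 libraries, WT and NFKO, 1 of each, so that no value has a replicate and no test was run. Each library pooled the whole small intestines of 4 to 5 mice aged 4 to 6 weeks, with the pancreas removed, and the spread between mice is not seen. Mice of both groups carried Neurog3Cre and Rosa26tdtomato. Neurog3 is switched on in endocrine progenitors of the crypt, so that Tomato marks these cells and their descendants. NFKO mice also carried FoxO1 f/f, floxed alleles to be deleted by the same Cre in the same cells. WT contributed 206 members of 3129 kept barcodes and the library labelled NFKO 273 of 5632. Intervals below are 95% intervals and cover counting error only.

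Enterochromaffin cells are the main source of serotonin in the body. They make it from tryptophan with the enzymes Tph1 and Ddc, store it in granules together with chromogranins, and release it by calcium-triggered exocytosis when gut contents or nerves stimulate them. The Tac1 gene encodes the precursor of substance P and neurokinin A, peptides that act on gut muscle and nerves. As enterochromaffin cells move from crypt to villus, their peptides are known to change from Tac1 towards Sct, the gene of secretin.

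Summed over cells, the markers bore out the label in both libraries when set against goblet-type cells. Such a comparison does not tell members from other endocrine cells. Single members varied, and Tph1 reached 0.1% of UMIs, with at least 3 UMIs, in 130 of 206 WT and 188 of 273 NFKO members. Levels are in CPM, counts per 1000000, from UMIs summed over the cells of a set. Tph1, the first enzyme of serotonin synthesis, stood at 1437 CPM (1397 to 1479) in WT members and 1711 CPM (1669 to 1753) in NFKO members. Goblet-type barcodes, with Muc2 at 0.1% of UMIs or more and at least 3 UMIs, served as cells that should lack the gene. They stood at 2.37 and 7.79 CPM, although barcodes with Tph1 over the same limit were kept out of this set. A Tph1 UMI was found in 86.4% of WT members and 88.3% of NFKO members, at median depths of 12197 and 11785 UMIs. It was found in 2.65% and 11.8% of the Muc2 barcodes, at median depths of 26253 and 22891 UMIs. With every cell thinned to 2000 UMIs, the shares were 79.5% (73.3 to 84.8) and 79.7% (74.2 to 84.4) in members, against 0.403% (0.131 to 0.938) and 3.23% (2.54 to 4.05) in Muc2 barcodes. Thinning left out 1 WT and 17 NFKO members as too shallow, and 3 and 177 Muc2 barcodes.

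The other markers showed the same order. Lmx1a, a homeodomain factor needed for enterochromaffin differentiation, was at 190.2 and 244 CPM in WT and NFKO members, against 0.413 and 0.858 CPM in Muc2 barcodes. Mnx1, also a homeodomain factor, was at 91.5 and 103 CPM in members and at 1.85 and 1.902 CPM in Muc2 barcodes. Chgb, a granule protein of the chromogranin family, reached 37742 and 32359 CPM. Its background was high in NFKO. After thinning, 5.32% of WT and 18.3% of NFKO Muc2 barcodes held a Chgb UMI, against 95.6% (91.8 to 97.97) and 96.5% (93.4 to 98.4) of members. Tac1 itself chose the members, at 6350.4 and 5856 CPM. In Muc2 barcodes it stood at 48.4 and 44.9 CPM, and 8.22% (6.75 to 9.89) and 8.29% (7.18 to 9.5) of these held a Tac1 UMI after thinning.

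**Figure D1:**
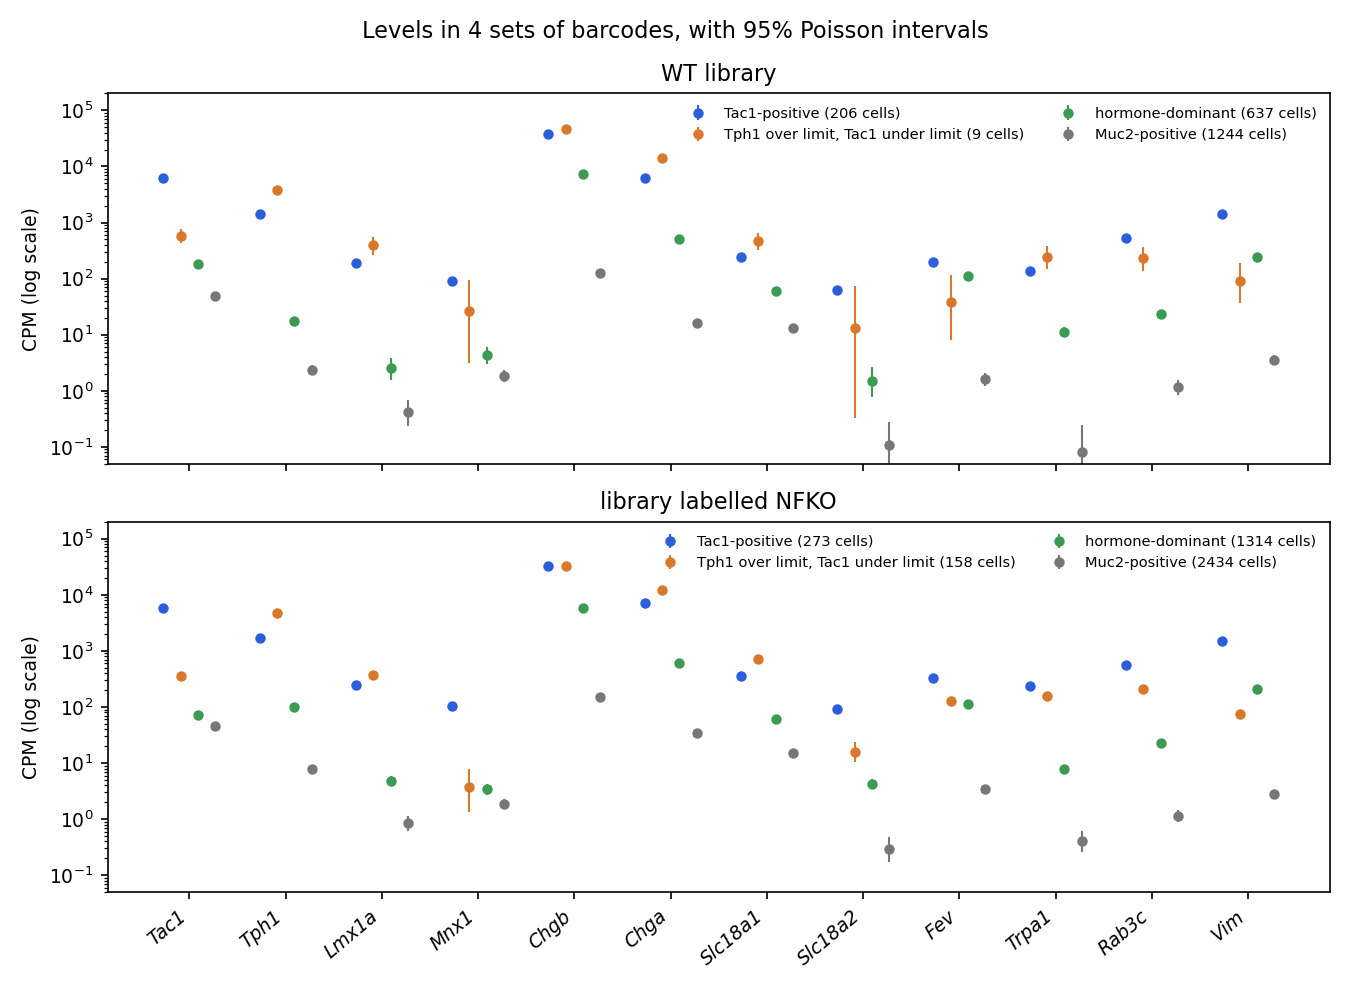
Levels (CPM, log scale) of 12 genes in 4 sets of barcodes of the WT library (top) and the library labelled NFKO (bottom). Points are sums over the cells of a set and bars are 95% Poisson intervals, and hormone-dominant barcodes hold 1% or more of their UMIs from 1 of the 7 hormones. All 12 genes are higher in Tac1-positive cells (blue) than in Muc2 barcodes (grey), and Mnx1, Slc18a2 and Vim are also higher there than in cells with Tph1 over its limit and Tac1 under it (orange).

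In genome build GRCm38, with GENCODE M21 annotation, the markers are protein-coding genes. The plus-strand genes are Tac1 (chromosome 6, 7554879 to 7565834), Lmx1a (chromosome 1, 167689237 to 167848741), Chgb (chromosome 2, 132781278 to 132795079) and the targeted gene Foxo1 (chromosome 3, 52268336 to 52353221). The minus-strand genes are Tph1 (chromosome 7, 46644641 to 46672537) and Mnx1 (chromosome 5, 29473034 to 29478470).

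The libraries differed in more than the label. Total depth was 90002878 UMIs in WT and 124300388 UMIs in the library labelled NFKO. Of the members, 165 of 206 in WT held Y-linked transcripts without Xist, while 223 of 273 in NFKO held Xist without Y-linked transcripts, so that sex and genotype cannot be told apart. The libraries shared 6 barcode sequences, and 0 of them were members in both. Summed goblet, Paneth, enterocyte, tuft and immune markers exceeded 2% of UMIs in 19 WT members (9.22%) and in 59 NFKO members (21.6%). These droplets are called mixed below. No doublet caller was run.

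Foxo1 was counted as a check of the labels. WT members held 53 Foxo1 UMIs in 38 cells, or 15.9 CPM (11.9 to 20.8), and NFKO members held 52 UMIs in 44 cells, or 14.03 CPM (10.5 to 18.4). The ratio of NFKO over WT was 0.883 (0.5903 to 1.32), an interval that includes 1. A complete loss of the counted transcript was thus not seen, and a small fall was not detectable at this depth. The counts do not bear out the label, and counting at the 3′ end can still count transcripts of a deleted allele, which was not tested. The related factors Foxo3, Foxo4 and Foxo6 stood at 18.6, 17.1 and 3.6 CPM in WT and at 18.1, 14.6 and 3.51 CPM in NFKO. Ins1 had 0 UMIs in members of both libraries, and Ins2 had 0 in WT and 1 in NFKO. A count of 0 allows up to 0.90 CPM in WT members and 0.810 CPM in NFKO members.

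Members made up 6.58% (5.74 to 7.51) of kept WT barcodes and 4.85% (4.30 to 5.44) of kept NFKO barcodes, a ratio of 0.736 (0.612 to 0.887). Among barcodes with at least 3 UMIs of Chga or Chgb they made up 16.2% (14.2 to 18.4) and 9.04% (8.03 to 10.1), a ratio of 0.559 (0.463 to 0.675). With every deposited barcode as the denominator and no quality limit, the ratio was 0.938 (0.784 to 1.12). Without the Neurog3 limit it was 0.849, with an interval from 0.722 that just reached 1, and for members over the Tph1 limit it was 0.803 (0.639 to 1.01). Of kept barcodes over the Tac1 limit, 264 in WT and 398 in NFKO, the Neurog3 limit removed 43 and 107 and the hormone limit a further 15 and 18. The Tac1 share of a member's UMIs had a median of 0.731% in WT, with quartiles of 0.266% and 1.16%, and of 0.505% in NFKO, with quartiles of 0.213% and 0.957%. The highest Tac1 shares were 3.06% and 2.70%.

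The Tac1 limit lay within a continuous range. The 20 WT members just inside it held Tac1 at 0.101% to 0.139% of UMIs. The 20 WT barcodes just outside it, of 200 with 3 Tac1 UMIs and a share under the limit, held 0.0646% to 0.0997%. Tph1 stood at 471 CPM inside and 271 CPM outside, and 9 of 20 cells on each side held a Tph1 UMI. In NFKO the 20 members just inside held 0.10% to 0.130%, and the 20 barcodes just outside, of 326, held 0.0859% to 0.0992%. There Tph1 was at 889.9 CPM inside and 2468 CPM outside, in 12 and 15 of 20 cells. The goblet gene Muc2 was at 4421 and 2722 CPM inside and outside in WT and at 4259 and 2346 CPM in NFKO.

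The overlap of Tac1 with Tph1 differed between the libraries. Tph1 was at 0.1% of UMIs or more, with at least 3 UMIs, in 130 of 206 WT members, or 63.1% (56.1 to 69.7), and in 188 of 273 NFKO members, or 68.9% (63.0 to 74.3). Among all barcodes over this Tph1 limit that met the same hormone and Neurog3 limits, the libraries parted. Of 144 in WT, 130 were members, or 90.3% (84.2 to 94.6), 9 held Tac1 under its limit and 5 held none. Of 381 in NFKO, 188 were members, or 49.3% (44.2 to 54.5), 158 held Tac1 under its limit and 35 held none. Tph1 barcodes outside the members thus made up 0.447% (0.245 to 0.750) of kept WT barcodes and 3.43% (2.97 to 3.94) of kept NFKO barcodes, a ratio of 7.66 (4.46 to 14.3). All Tph1 barcodes together made up 4.60% and 6.76%, a ratio of 1.47 (1.21 to 1.79). Tac1 made up 1% or more of UMIs in 67 of the 144 WT barcodes and in 59 of the 381 NFKO barcodes. Sex moved with the label here as well, and its part was not tested.

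**Figure D2:**
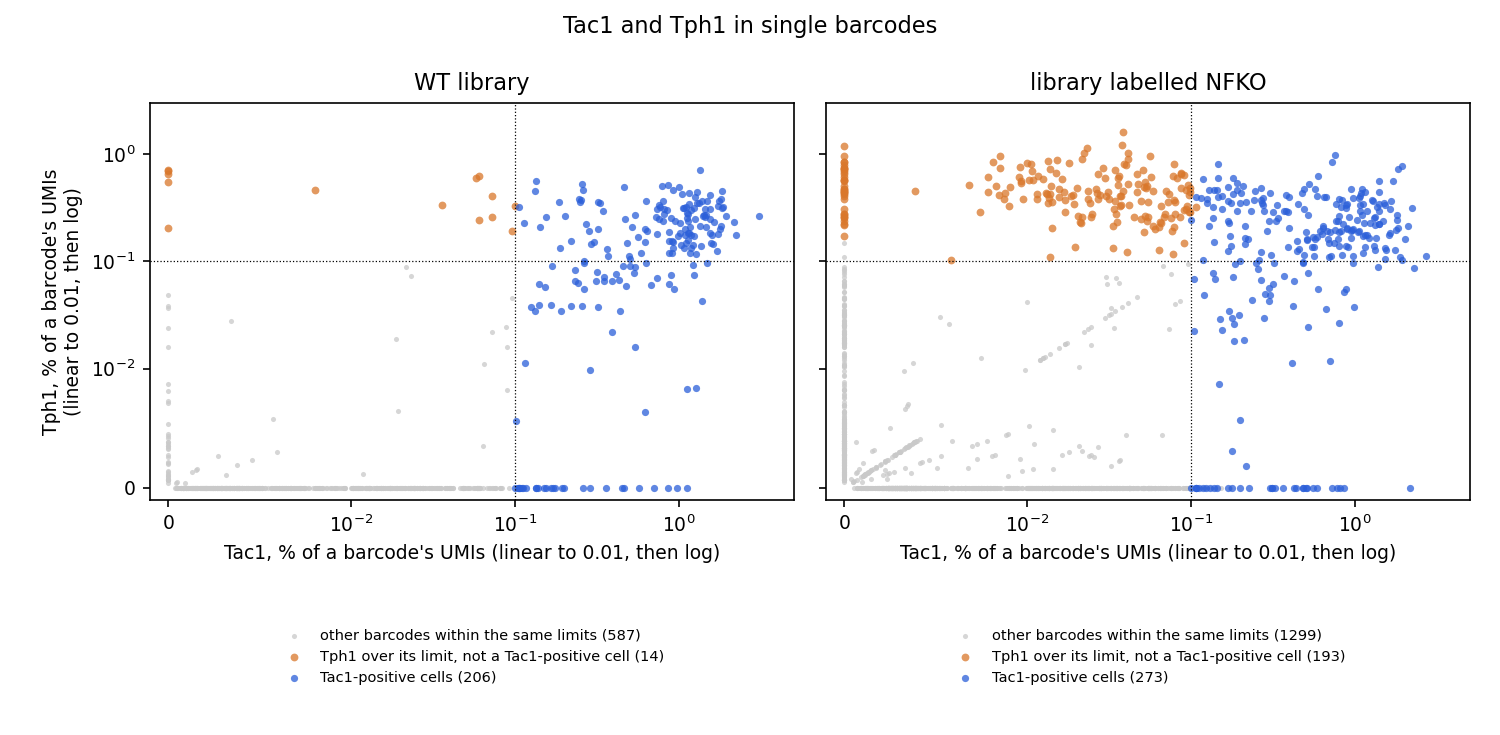
Tac1 against Tph1, each as a percentage of a barcode's UMIs (linear up to 0.01, then log), in kept barcodes within the hormone and Neurog3 limits that hold a UMI of either gene, in the WT library and the library labelled NFKO. Dotted lines mark 0.1%. The field with Tph1 over its limit and Tac1 under it holds 14 WT barcodes and 193 NFKO barcodes.

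Tph1 barcodes with some Tac1 under the limit differed from Tac1-positive cells in named genes. This set was defined after values were seen. Since only 9 of its barcodes came from WT, the levels are those of the 158 NFKO barcodes, with a median depth of 9736 UMIs, against the 188 NFKO members with Tph1 over its limit. Sct, the gene of secretin, stood at 23407 CPM against 9482 CPM. Cartpt, a neuropeptide precursor, stood at 449.9 CPM against 48.8 CPM. Glp1r, the receptor of glucagon-like peptide 1, stood at 223 CPM against 47.8 CPM, and Trpm2, a cation channel, at 382 CPM against 109.7 CPM. Syt7, a calcium sensor of exocytosis, stood at 1122 CPM against 334 CPM, and Ambp, a plasma protein precursor, at 1127 CPM against 285 CPM. All 6 were lower in the Tac1-positive cells.

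Other genes were higher in the Tac1-positive cells. Mnx1 stood at 3.68 CPM, from 6 UMIs, against 139 CPM. Vim, an intermediate filament gene, stood at 74.8 CPM against 2164 CPM, and Gstt1, a glutathione transferase, at 131 CPM against 1398 CPM. Slc18a2, a vesicular monoamine transporter, stood at 15.9 CPM against 134 CPM. Hmgn3, a nucleosome-binding protein, stood at 121 CPM against 624 CPM, and Cat, the gene of catalase, at 19 CPM against 169 CPM. Lmx1a, at 368 CPM against 379.8 CPM, and Chga, at 12352 CPM against 11181 CPM, were close in both sets. For Sct, Syt7 and Vim, the 9 WT barcodes lay on the same side of the WT members with Tph1 over its limit. They held Sct at 19654 against 5711 CPM, Syt7 at 1197 against 124 CPM, and Vim, from 7 UMIs, at 91.1 against 2118 CPM. The other genes are not given for these 9 barcodes, where 3 UMIs correspond to 39.0 CPM.

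Genes higher in members than in all other kept barcodes were counted next. Of 3038 genes tested, 94 (3.09%) were at least 4-fold higher in both libraries. The members were chosen by their transcripts, so these genes describe them. The 12 with the highest ratio, by the lower of the 2 libraries, were Slc18a2, Trpa1, Afp, Tpbg, Tac1, Gstt1, Rab3c, Vcan, Il18r1, Igfbp3, Lmx1a and Mnx1. Slc18a2 was at 62.4 CPM in WT members against 0.372 CPM in the other kept barcodes, and at 90.7 against 1.56 CPM in NFKO, ratios of 168 and 57.97. Trpa1, the irritant-gated channel of enterochromaffin cells, was at 134 against 2.07 CPM and at 236 against 5.13 CPM. Tpbg, a membrane glycoprotein, was at 295 against 2.06 CPM and at 329 against 7.92 CPM, and Gstt1 at 727 against 14.4 CPM and at 909 against 30.8 CPM. Rab3c, a small GTPase of secretory vesicles, was at 523 against 7.89 CPM and at 550.3 against 19.01 CPM. Vcan, the proteoglycan versican, was at 113 against 2.53 CPM and at 143 against 5.04 CPM, and Il18r1, a subunit of the interleukin 18 receptor, at 73.5 against 1.501 CPM and at 98.8 against 3.91 CPM.

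Of the 13 genes of the enterochromaffin identity list, 11 were tested, among them Tac1, which the choice of members used. The rest were Tph1, Lmx1a, Mnx1, Chgb, Chga, Ddc, Slc18a1, Fev, Reg4 and Slc38a11, and each was at least 4-fold higher in both libraries. The other two, the peptide genes Ucn3, at 28.2 and 45.9 CPM, and Cartpt, at 30.9 and 27.8 CPM, were under 50 CPM in members. Between the libraries 0 of the 11 differed 2-fold, with a median log2 ratio of 0.36. Over all 3643 genes eligible for this comparison, 1.95% were at least 2-fold higher in NFKO and 1.43% at least 2-fold lower. Their median log2 ratio was 0.12. At these shares, a count of 0 in a short list, here and below, is not particular to the list. Chga was at 6225 and 7139.7 CPM and Slc38a11, an amino acid transporter, at 98.7 and 137 CPM.

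Of 16 genes of serotonin synthesis, storage and breakdown, 10 were tested and 5 were called. These were Tph1, Ddc, Gch1, which makes the cofactor of Tph1, and the vesicular transporters Slc18a1 and Slc18a2. Ddc stood at 655 and 967 CPM in WT and NFKO members, Gch1 at 509 and 639 CPM and Slc18a1 at 247 and 359 CPM. The cofactor genes Qdpr, at 180.0 and 269.9 CPM, Pcbd1, at 138 and 203 CPM, and Pts, at 73.5 and 76.1 CPM, were under the 4-fold limit. Tph2, the neuronal form of the enzyme, had 0 UMIs. Between the libraries 0 of 10 eligible genes differed 2-fold, with a median log2 ratio of 0.43. The ratio of NFKO over WT was 1.19 (1.15 to 1.24) for Tph1 and 1.48 (1.4 to 1.56) for Ddc.

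Of the tachykinins and their receptors, Tac4 had 1 UMI, in NFKO, and Tac2, Tacr1, Tacr2 and Tacr3 had 0. Among 5 granins, Chga and Chgb were called. Scg3 was at 126 and 204 CPM and Vgf at 47.4 and 60.2 CPM, while Scg2, at 11.1 and 14.3 CPM, was at 0.0896 and 0.0704 times its level in the other kept barcodes. Of 6 prohormone processing genes the convertase Pcsk1 was called, at 776 and 718 CPM. Between the libraries 0 of 4 eligible granins differed 2-fold, with a median log2 ratio of 0.27, and 1 of 5 eligible processing genes did, with a median of 0.21. Cpe, a carboxypeptidase, was at 542 and 564 CPM, Pam, the amidating enzyme that finishes substance P, at 289 and 335 CPM and Scg5, the chaperone of Pcsk2, at 96.9 and 186 CPM. Pcsk2 itself had 1 and 5 UMIs.

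Of 27 endocrine transcription factors, 19 were tested and 6 were called: Fev, Lmx1a, Mnx1, Myt1, Runx1t1 and Hmgn3. Fev, an ETS factor of serotonergic cells, was at 201 and 333 CPM and Hmgn3 at 422 and 547 CPM. Runx1t1 was at 153 and 179 CPM and Myt1 at 109 and 126 CPM. The factors Neurod1, at 1004 and 1034 CPM, and Insm1, at 315 and 429.9 CPM, were not called. Nor were Nkx2-2, at 177 and 213 CPM, and Sox4, at 371 and 306.3 CPM. Of these, Neurod1, Insm1 and Nkx2-2 were over 4-fold in WT, at ratios of 6.17, 4.92 and 4.98. In NFKO they were under it, at 3.82, 3.01 and 3.38. The called Myt1 was at 6.77 and 4.10 and Runx1t1 at 5.76 and 4.40. The other kept barcodes were not only endocrine cells, so that a call does not tell factors of these cells from general endocrine ones. Between the libraries 0 of 20 eligible factors differed 2-fold, with a median log2 ratio of 0.25.

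Among 18 sensors and receptors, 3 were tested and Trpa1 was called. Ffar2, a receptor of short-chain fatty acids, was at 183 and 236 CPM and Gucy2c, the guanylin receptor, at 175 and 142 CPM. Trpm2 was at 37.8 and 63.7 CPM. Il13ra1, Gipr and Sstr5 were under 50 CPM in both libraries, Adra2a, an adrenergic receptor, had 98 and 35 UMIs, and Piezo2 had 0. Olfr558, an olfactory receptor gene, had 37 UMIs in 11 WT members and 1 UMI in NFKO members, too few to be eligible, and is named here after its values were seen. Of 11 ion channel genes, 5 were tested, and Scn3a, a sodium channel, at 562 and 633 CPM, and Cacna1h, a calcium channel, at 54.6 and 60.2 CPM, were called. Cacna1a was at 294 and 366 CPM, Cacna2d1 at 179.7 and 273 CPM and Kcnb2 at 96.6 and 137 CPM. None of the 4 eligible sensors or 6 eligible channels differed 2-fold between the libraries, with median log2 ratios of 0.56 and 0.30.

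Of 21 exocytosis genes, 13 were tested and 5 were called: Snap25, Rab3c, Rims2, Resp18 and Ptprn. Snap25, a membrane fusion protein, was at 118 and 198 CPM, Resp18 at 173 and 274 CPM, Ptprn, a granule membrane protein, at 138 and 144 CPM and Rims2, a scaffold of release sites, at 71.1 and 65.8 CPM. Between the libraries 2 of 15 eligible genes differed 2-fold, with a median log2 ratio of 0.26. Of 22 FoxO target genes, 8 were tested and Cat was called, at 102 and 129.8 CPM. Between the libraries 0 of 9 eligible FoxO targets differed 2-fold, with a median log2 ratio of 0.20. Ccnd2, a cyclin, was at 228 and 439 CPM, a ratio of 1.92 (1.76 to 2.1), Cdkn1a, a cell cycle inhibitor, at 195 and 353 CPM and Txnip, a thioredoxin inhibitor, at 169.8 and 125 CPM. G6pc had 0 UMIs.

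Members of 1 library were not alike, and many genes followed the Tac1 share. Of the mixed droplets, 15 of 19 in WT and 31 of 59 in NFKO lay in the lowest of 3 equal parts by Tac1 share, so that they were left out and the parts formed again. Tac1 levels follow from this order and are not a result. Tph1 went from 976 to 2468 CPM in WT and from 1803 to 2665 CPM in NFKO, from the lowest to the highest part. Ddc went from 406 to 1123 CPM in WT and from 553 to 1703 CPM in NFKO, and Slc18a2 from 51.03 to 91.3 CPM in WT and from 26.7 to 131 CPM in NFKO. Mnx1 went from 28.4 to 174 CPM in WT and from 47.3 to 210.3 CPM in NFKO. Vim went from 576 to 2966 CPM in WT and from 452 to 3578 CPM in NFKO, and Gstt1 from 321 to 1534 CPM in WT and from 364 to 2066 CPM in NFKO. Intervals of the lowest and highest parts did not overlap, in this direction and in both libraries, for these 6 genes and for Gch1, Slc18a1, Lmx1a, Fev, Hmgn3, Nkx2-2, Trpa1, Scn3a and Rab3c.

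Other genes ran the other way. Fabp5, a fatty acid binding protein, went from 748 to 132 CPM in WT and from 951 to 107 CPM in NFKO. Isl1, a LIM-homeodomain factor, went from 137 to 10.9 CPM in WT and from 159 to 12.5 CPM in NFKO, with 140.0 and 172 CPM in the middle parts. Sct went from 4653 to 3276 CPM in WT and from 8338 to 6988 CPM in NFKO, and Afp, the gene of alpha-fetoprotein, from 612 to 28.6 CPM in WT and from 896 to 144 CPM in NFKO. Syt7 went from 125 to 40.9 CPM in WT and from 493 to 86.4 CPM in NFKO, and Trpm2 from 51.03 to 24.5 CPM in WT and from 147 to 36.4 CPM in NFKO. Olfm4, a stem cell gene, went from 2263 to 9.54 CPM in WT and from 542 to 1.14 CPM in NFKO. For these 7 genes too the intervals did not overlap in either library. In both directions the intervals cover counting error and not the spread between cells. Among all members, 7 WT and 2 NFKO cells held 50% of the Olfm4 UMIs, and a few cells held 50% of those of Afp.

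**Figure D3:**
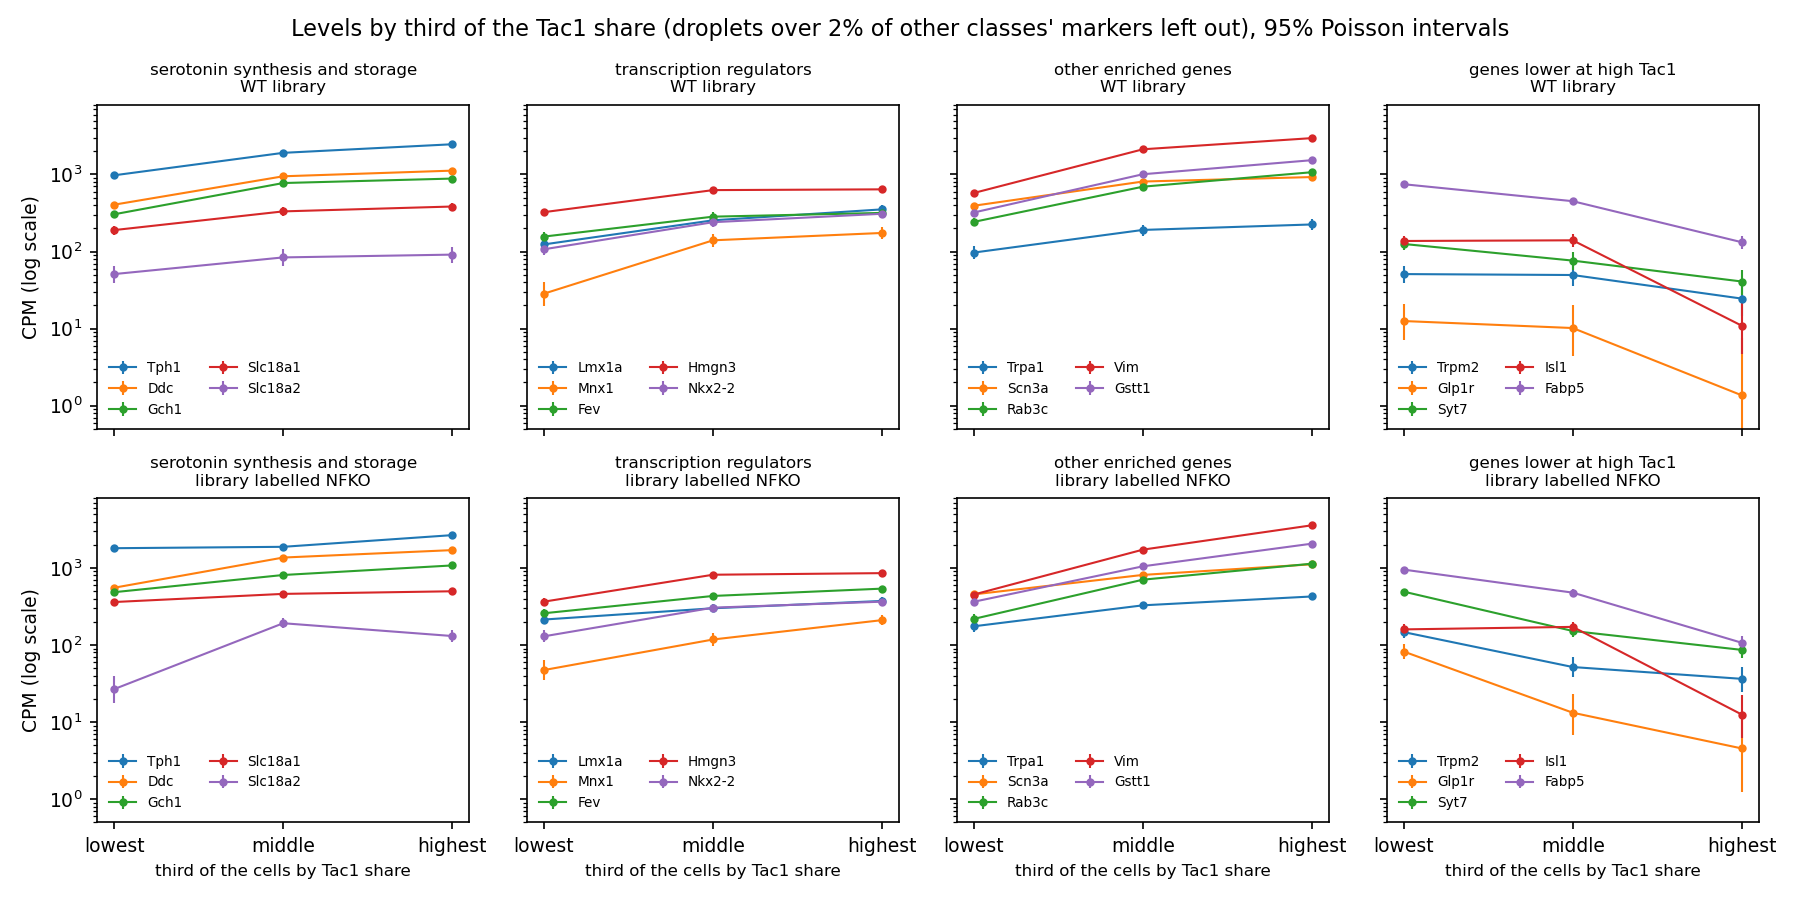
Levels (CPM, log scale) in the lowest, middle and highest of 3 equal parts of the members by Tac1 share, without mixed droplets, in the WT library (top) and the library labelled NFKO (bottom). Points are sums over cells and bars are 95% Poisson intervals. The 15 genes of the first 3 columns are higher in the highest than in the lowest part in both libraries, and Fabp5, Isl1, Syt7, Trpm2 and Glp1r are lower.

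Splitting the members by Tph1 gave a second view. Members with Tph1 over its limit had Chga at 10324 CPM in WT and 11181 CPM in NFKO, and those under it 2503 and 2029 CPM. Trpa1 was at 269 and 391 CPM over the limit and at 12.6 and 40.9 CPM under it. Fabp5 was at 90.8 and 104 CPM over the limit and at 695 and 798 CPM under it. Mixed droplets were 15 of 76 WT members and 41 of 85 NFKO members under the limit, against 4 of 130 and 18 of 188 over it.

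The members also divided by Reg4, a secreted lectin of enterochromaffin cells. This split was chosen after values were seen. Without mixed droplets, 52 WT members had Reg4 at 0.1% of UMIs or more with at least 3 UMIs and 135 did not, and in NFKO 90 did and 124 did not. Median depths were 11058 and 12101 UMIs in Reg4-positive and Reg4-negative WT members and 9877 and 14068 UMIs in NFKO members. The split overlapped with that by Tph1. Tph1 was over its limit in 46 of 52 Reg4-positive and 80 of 135 Reg4-negative members of WT. In NFKO it was over its limit in 86 of 90 and 84 of 124. The part of Tph1 in the differences by Reg4 was not tested. Of 3482 genes compared, 52 were at least 2-fold higher and 24 at least 2-fold lower in Reg4-positive members in both libraries.

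Afp was almost limited to the Reg4-positive side. It stood at 1088 against 0.999 CPM in WT and at 4398 against 23.2 CPM in NFKO, where the Reg4-negative WT level rests on 2 UMIs. An Afp UMI was found in 19 of 52 Reg4-positive and 2 of 135 Reg4-negative members of WT and in 54 of 90 Reg4-positive and 12 of 124 Reg4-negative members of NFKO. Cartpt stood at 136 against 2.498 CPM in WT and at 109 against 1.62 CPM in NFKO, the Reg4-negative levels from 5 and 3 UMIs. Slc18a2 stood at 174 against 34.98 CPM in WT and at 271 against 37.3 CPM in NFKO, and Trpa1 at 324 against 99.9 CPM in WT and at 666 against 129 CPM in NFKO. A Trpa1 UMI was found in 37 of 52 Reg4-positive and 36 of 135 Reg4-negative members of WT and in 70 of 90 Reg4-positive and 37 of 124 Reg4-negative members of NFKO. Ucn3, a peptide of the urocortin family, stood at 111 against 6.995 CPM in WT and at 159 against 9.72 CPM in NFKO.

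Other genes were higher on the Reg4-negative side. Isl1 stood at 138 against 7.004 CPM in WT and at 168 against 12.1 CPM in NFKO. Fabp5 stood at 656 against 46.2 CPM in WT and at 751 against 68.3 CPM in NFKO. A Fabp5 UMI was found in 16 of 52 Reg4-positive and 67 of 135 Reg4-negative members of WT and in 36 of 90 Reg4-positive and 82 of 124 Reg4-negative members of NFKO, so that it was present on both sides. Nr4a2, an orphan nuclear receptor, stood at 160.4 against 15.4 CPM in WT and at 139 against 38.6 CPM in NFKO. Scgn, a calcium-binding protein, stood at 64.95 against 15.4 CPM in WT and at 116 against 14.3 CPM in NFKO, and Cdkn1c, a cell cycle inhibitor, at 325 against 71.4 CPM in WT and at 432 against 126 CPM in NFKO. A Scgn UMI was found in 8 of 52 Reg4-positive and 41 of 135 Reg4-negative members of WT, shares of 15.4% (6.88 to 28.1) and 30.4% (22.8 to 38.9) whose intervals overlap, and in 11 of 90 Reg4-positive and 59 of 124 Reg4-negative members of NFKO. Tac1, by contrast, stood at 7295 against 7243 CPM in WT and at 6167 against 7381 CPM in NFKO in Reg4-positive and Reg4-negative members.

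**Figure D4:**
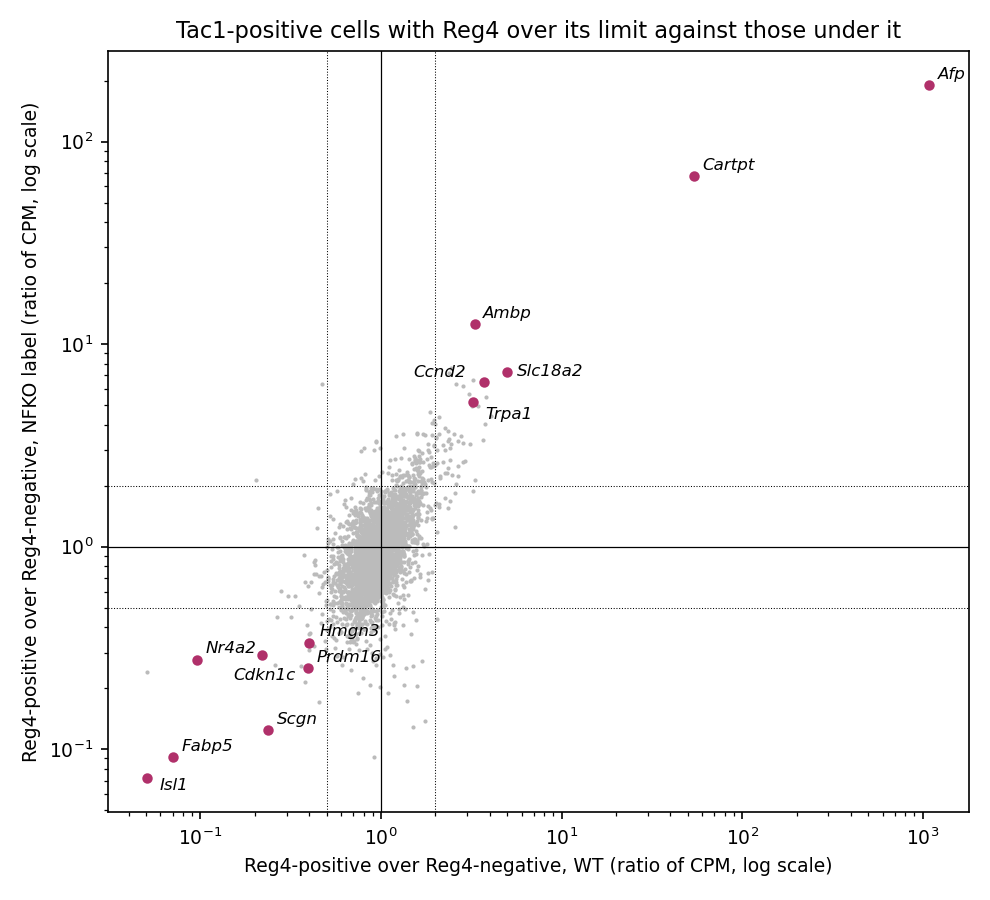
Ratio of Reg4-positive over Reg4-negative members in WT (horizontal) and in the library labelled NFKO (vertical), each point a gene, on log scales, without Reg4 itself. Solid lines mark 1 and dotted lines 2 and 0.5. Afp and Cartpt lie to the upper right in both libraries, and Isl1 and Fabp5 to the lower left.

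Between the libraries, the members differed 2-fold in few genes. Genes were eligible with 50 CPM or more in members of either library and a sum of 100 UMIs or more. Of 3643 such genes, 71 (1.95%) were at least 2-fold higher in NFKO and 52 (1.43%) at least 2-fold lower. The median log2 ratio over all these genes was 0.12. With size factors set on that median, 56 were higher and 65 lower, so that the higher genes went from 57.7% to 46.3% of those called. Of the 71 higher genes, 61 were also higher in NFKO in Muc2 barcodes, 34 of them at least 2-fold. Of the 52 lower ones, 44 were also lower there, 16 of them at least 2-fold. The share of all eligible genes that differed 2-fold in Muc2 barcodes was not counted. The ratio or the levels in Muc2 barcodes are therefore given beside most genes described below.

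**Figure D5:**
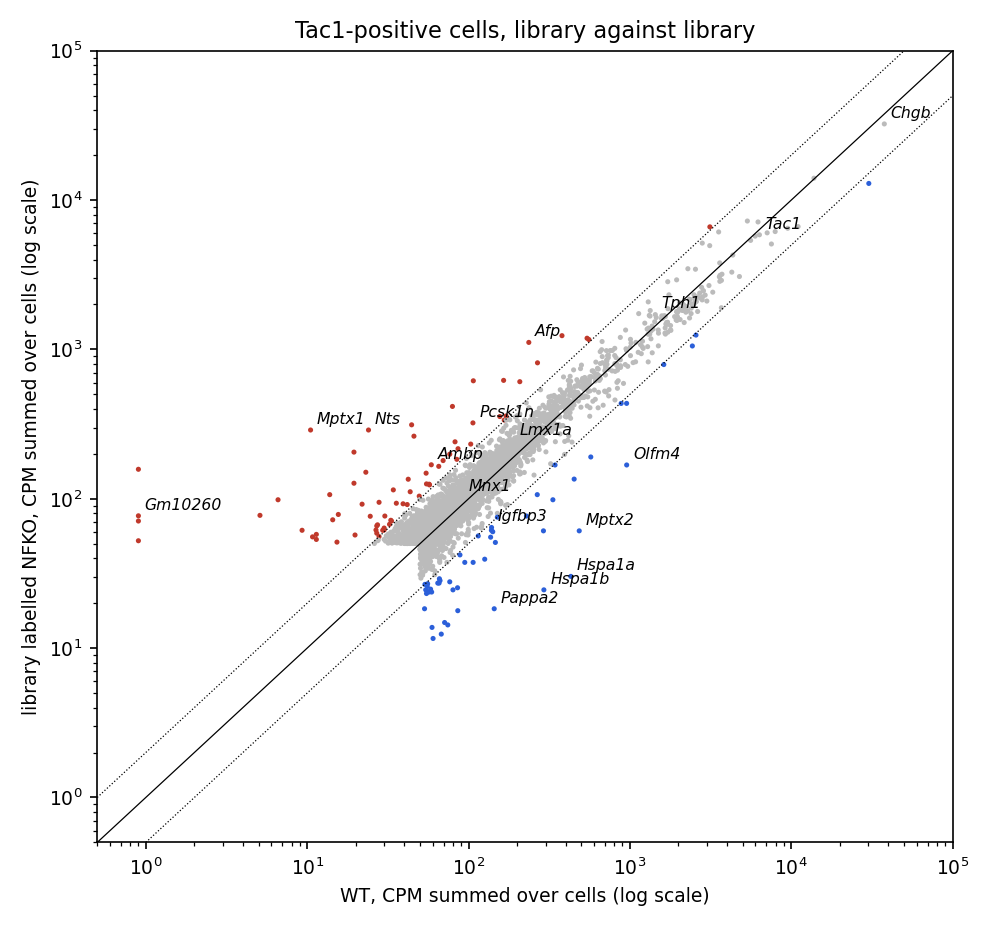
Summed levels (CPM, log scales) of the library labelled NFKO against WT in Tac1-positive cells. Each point is an eligible gene, sex-linked genes are left out, and levels under the floor of 3 UMIs are drawn at it. The solid line marks equal levels and dotted lines 2-fold. Red points are at least 2-fold higher in NFKO, among them Nts and Afp, and blue points at least 2-fold lower, among them Pappa2 and Hspa1a.

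Pappa2, a secreted protease that cleaves insulin-like growth factor binding proteins, was at 144 CPM (132 to 158) in WT members and 18.4 CPM (14.3 to 23.3) in NFKO members, a ratio of 0.127 (0.0972 to 0.164). It was counted in 81 of 206 and 31 of 273 members, and 19 WT cells held 50% of its UMIs. In Muc2 barcodes it was at 0 CPM in WT and 0.0186 CPM in NFKO. Both sides of the Reg4 split had the difference, with 328 and 20.9 CPM in Reg4-positive and 111 and 19.98 CPM in Reg4-negative members of WT and NFKO. Igfbp3, a binding protein of insulin-like growth factors, was at 139 CPM (127 to 152) and 64.2 CPM (56.3 to 72.9), a ratio of 0.462 (0.394 to 0.542), in 84 and 63 members. In male-typed members alone, 165 in WT and 17 in NFKO, the ratios were 0.239 for Pappa2 and 0.528 for Igfbp3, from 8 and 16 NFKO UMIs.

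Several heat shock genes were lower in the NFKO members. Hspa1a was at 431 and 30.2 CPM, a ratio of 0.0702 (0.0574 to 0.0851), and its near-identical copy Hspa1b at 293 and 24.6 CPM, so that the split of counts between the copies is uncertain. In Muc2 barcodes the ratios were 0.0568 and 0.0722. Of 20 heat shock and immediate early genes, 19 were eligible, 5 were lower and 1 was higher, with a median log2 ratio of -0.19. The other lower ones were Dnajb1, at 452 and 135 CPM, Hsph1, at 147 and 51.01 CPM, and Hsp90aa1, at 1623 and 792 CPM, with Muc2 ratios of 0.3401, 0.2103 and 0.343. Hspb1, a small heat shock protein, was at 30.3 and 76.6 CPM, in 19 and 56 members, with a Muc2 ratio of 0.933. The immediate early genes Fos, at 1635 and 1685 CPM, Egr1, at 1165 and 1075 CPM, and Jun, at 2170.3 and 1514 CPM, were within 2-fold.

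Eligible markers of stem and dividing cells were also lower. All 3 eligible stem markers of 5 were lower, with Olfm4 at 955 and 168 CPM, Smoc2 at 64.5 and 27.3 CPM and Axin2 at 57 and 23.7 CPM and a median log2 ratio of -1.26. Both eligible cycling markers of 5 were lower, with Mki67 at 85.5 and 25.4 CPM and Top2a at 107 and 37.5 CPM and a median of -1.63. Of those under 50 CPM, Birc5 had a ratio of 0.679 (0.531 to 0.866) and Cdk1 of 0.732 (0.513 to 1.04), both within 2-fold. Ccnb1 had a ratio of 0.468 (0.279 to 0.766). In Muc2 barcodes the ratios were 0.353 for Olfm4, 0.903 for Smoc2, 0.755 for Axin2, 0.807 for Mki67 and 0.838 for Top2a. With Tac1 at 0.5% of UMIs or more, the ratios in members were 0.673 for Smoc2, 0.8801 for Axin2 and 0.682 for Top2a, short of 2-fold, and with no limit on the Tac1 share they were 0.7097 for Smoc2, 0.617 for Mki67 and 0.556 for Top2a. The ratio of Axin2 was 0.586 with each cell weighted equally, 0.575 in members over the Tph1 limit and 0.691 in male-typed members. These transcripts came from few cells, since Mki67 was counted in 24 WT and 23 NFKO members, and 7 of the 49 WT members with Olfm4 held 50% of its UMIs. The histone genes Hist1h2ap, Hist1h2ae and Hist1h4d, which have near-identical copies, were at 67.8 and 12.4, 60.3 and 11.6 and 71.1 and 14.8 CPM, with Muc2 ratios of 0.467, 0.576 and 0.372. Thbs1, the matrix protein thrombospondin 1, was at 74.4 and 14.3 CPM, with a Muc2 ratio of 0.567, and H2-Eb1, an MHC class II chain, at 85.8 and 17.8 CPM, with 0.891. Mptx2, a pentraxin of Paneth cells, was at 485 and 60.99 CPM, but 1 WT cell held 50% of its UMIs, and without the member richest in it in each library the ratio was 1.06.

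Of 16 peptide hormones other than Tac1, 7 were eligible, with a median log2 ratio of 2.23 over the 7. The list also holds Sct, Ucn3 and Cartpt, which enterochromaffin cells make. Gip, Pyy, Nts, Sst and Ghrl were at least 2-fold higher in NFKO members. The choice of members held them under 1% of UMIs, and their levels were 0.00964 to 0.0742 times those of the other kept barcodes. Nts, the neurotensin gene, stood at 24 and 289 CPM, in 64 and 248 members, with a ratio of 12.03 in members and 7.67 in Muc2 barcodes. Gip stood at 79.5 and 415 CPM, with ratios of 5.22 and 2.67, Ghrl at 14.4 and 72.3 CPM, with 5.02 and 3.303, and Sst at 27.9 and 94.7 CPM, with 3.395 and 3.12. Pyy stood at 11.4 and 53.4 CPM, with 4.69 and 1.06. Without the hormone limit the member ratios were 0.433 for Pyy, now lower in NFKO, 2.57 for Gip, 14.6 for Nts, 9.08 for Sst and 15.5 for Ghrl. With no limit on the Tac1 share, Sst was at 1.19 and Gip at 1.43, short of 2-fold. Transcripts of 4 of these 5 hormones were also at least 2-fold higher in NFKO Muc2 barcodes, and their part in the members was not tested. Cck, at 683 and 423 CPM, and Sct, at 3549 and 6119 CPM, were within 2-fold, and Penk, Vip and Insl5 had 0 UMIs.

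Genes of liver-type secreted proteins formed another group. Of 13, 3 were eligible, and Afp and Ambp were higher, with a median log2 ratio of 1.52. Afp was at 236 CPM (220.2 to 254) and 1115 CPM (1081 to 1149), a ratio of 4.71 (4.37 to 5.09). It was found in 23 and 76 members, but 2 and 3 cells held 50% of its UMIs, and with each cell weighted equally the ratio was 1.94. In members with Tac1 at 0.5% of UMIs or more it was 35.2. In Muc2 barcodes Afp was at 0.0551 and 1.47 CPM, a ratio of 26.7 (7.16 to 225) from 2 UMIs in WT and 79 in NFKO. Ambp was at 58.8 and 169 CPM, a ratio of 2.87 (2.44 to 3.39), against 0.275 and 2.09 CPM and a ratio of 7.58 in Muc2 barcodes. Ttr, the transthyretin gene, was at 88.2 and 106 CPM. Rbp4, too low to be eligible, went the other way, at 49.5 and 27.8 CPM, a ratio of 0.562 (0.435 to 0.723). Also not eligible, Serpina1a had 3 and 101 UMIs, Alb 3 and 70, Trf 22 and 43 and Apoh 3 and 2. Fgg, Ahsg and Itih2 had 0 UMIs. Serpina1c and Serpina1e, antitrypsin genes with near-identical copies, were at 19.5 and 205 CPM and at 13.8 and 107 CPM, with ratios of 10.5 and 7.72 in members and 4.33 and 6.19 in Muc2 barcodes. Both are named for their high ratios and are not among the 13.

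Few secretory and signalling genes differed 2-fold. Pcsk1n, the inhibitor of Pcsk1, was at 107 CPM (95.7 to 118) and 322 CPM (304 to 341), a ratio of 3.03 (2.69 to 3.42), in 128 and 203 members, with 1.93 in Muc2 barcodes. Syt7 was at 86.1 and 216 CPM, with 2.51 in members and 1.17 in Muc2 barcodes. Cadps, a priming factor of dense-core granules, was at 54.9 and 126 CPM, with 2.29 and 4.602. Of 5 BMP-responsive genes, 3 were eligible and 2 were higher, with a median log2 ratio of 1.07. Id1 was at 171 and 358 CPM and Id3 at 156 and 355 CPM, with ratios of 2.096 and 2.27 in members and 1.22 and 1.59 in Muc2 barcodes, and Id2 was at 171 and 336 CPM, a ratio of 1.96. Id1 was under 2-fold with size factors, at 1.92, without the Neurog3 limit, at 1.82, without the hormone limit, at 1.97, with Tac1 at 0.5% of UMIs or more, at 1.67, and with no limit on the Tac1 share, at 1.47. Id3 was under it in male-typed members, at 1.799, and with no limit on the Tac1 share, at 1.601.

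Some of these values differed by side of the Reg4 split. Id1 was at 175 CPM in WT and 800.0 CPM in NFKO Reg4-positive members, and at 187 and 239.7 CPM in Reg4-negative ones. Syt7 was at 108 and 488 CPM and at 81.4 and 135 CPM. Ambp was at 137 and 581 CPM and at 41.5 and 46.4 CPM. Pcsk1n was higher in NFKO on both sides, at 162 and 721 CPM and at 101 and 239.7 CPM. A difference between the sides was not tested.

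Most other genes among the 10 highest ratios rested on few cells. Hbb-bs, a hemoglobin chain, Anxa1 and Gm10260 had 0 UMIs in WT members and 158, 52.4 and 76.9 CPM in NFKO members, at least 175-fold, 58.2-fold and 85.5-fold higher against a floor of 3 UMIs in the library. Hbb-bs was in 10 cells and Anxa1 in 2, and in both 1 cell held 50% of the UMIs. Gm10260 was in 84 cells and had a ratio of 195 in Muc2 barcodes. Ly6d had 1 UMI in WT and 263 UMIs in 1 NFKO cell. Lgals3, a galectin, had 22 and 365 UMIs, Mptx1, a pentraxin, was at 10.5 and 289 CPM, and Apoc2, an apolipoprotein, at 5.1 and 77.5 CPM, with 50% of their NFKO UMIs in 1, 2 and 2 cells. Their Muc2 ratios were 3.48 for Lgals3, 50.8 for Mptx1 and 5.96 for Apoc2.

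Marker lists of other cell types did not all move with the label. Summed over 7 goblet markers, members stood at 19962 CPM in WT and 28938 CPM in NFKO, and Zg16 had a ratio of 2.11 in members and 3.196 in Muc2 barcodes. Its member ratio was 10.9 without mixed droplets, 0.273 in male-typed members and 1.12 with no limit on the Tac1 share. Over 7 Paneth markers the sums were 8179.9 and 8743 CPM. Lyz1, with a ratio of 2.93, and Defa30, one of several near-identical defensin genes, with 3.26, were higher. Itln1 had a ratio of 0.635, and Defa24, Mmp7, Defa17 and Ang4 lay between 0.959 and 1.07. Without mixed droplets the ratios of Lyz1 and Defa30 were 1.38 and 1.14. Over 7 enterocyte markers the sums were 450.0 and 882 CPM, with Apoa1 and Rbp2 at ratios of 6.52 and 2.92. Over 6 tuft markers they were 17.4 and 8.91 CPM, with Il25 at 0, and over 6 immune markers 0.30 and 0.270 CPM, with Ptprc, Cd3e, Gzma and Trbc2 at 0. The median log2 ratios of eligible goblet, Paneth and enterocyte markers were 0.62, 0.03 and 1.05. The part of mixed droplets and free transcripts in the differences above was not tested. Without mixed droplets, 98 of 3850 eligible genes were at least 2-fold higher and 60 at least 2-fold lower.

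Of the pancreatic beta cell genes, Ins1, Nkx6-1, Slc30a8 and G6pc2 had 0 UMIs in members. Iapp, the amylin gene, was at 36.9 and 44.3 CPM. Glp1r had 28 and 105 UMIs, in 10 and 36 members, and Pdx1 had 12 and 48 UMIs, in 8 and 22 members.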

How the data were processed

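Per the labels, single Tomato-positive cells were sorted from the small intestine of WT and NFKO mice and sequenced as 1 droplet library per group. The authors deposited raw UMI counts per gene and barcode for 32285 genes. Cell Ranger 5.0.1 and build mm10 are named in the submitters' processing notes. The counts can include transcripts free in the droplets.

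Members were chosen by the limits given with the results, after at least 500 genes, 1000 UMIs and at most 25% mitochondrial UMIs were required. Members, comparison sets and gene lists were chosen with earlier results of these data known. The Reg4 split (0.1% of UMIs and 3 UMIs) and the set of Tph1 barcodes with Tac1 under its limit were added after values were seen.

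UMIs were summed over the cells of a set and divided by the set's total to give CPM, with exact Poisson intervals. Shares have Clopper-Pearson intervals, and ratios of 2 sums an exact conditional binomial interval, all at 95%. With 1 library per group, cells are not replicates and no test was made. A gene was called between libraries at 2-fold, when it had at least 50 CPM in 1 library and 100 UMIs over both. It was called between members and other kept barcodes at 4-fold in both libraries. Shares of cells with a UMI were repeated after thinning each cell to 2000 UMIs. Mixed droplets held over 2% of UMIs from 33 markers of other classes, and they took the place of a doublet caller.

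Named genes were the members' markers, Foxo1, Ins1 and Ins2, the 12 highest ratios over other kept barcodes with any called list gene, and the 10 highest and 10 lowest ratios between libraries without sex-linked genes. From each list came up to 8 genes of the highest level, those that differed 2-fold, and markers at 0. Genes named in the splits of the members and in the comparison with Tph1 barcodes under the Tac1 limit were chosen after values were seen. Computation used Python 3.11.15, numpy 2.4.6, scipy 1.17.1, pandas 2.3.3 and matplotlib 3.10.9, and the ratio step was tested on simulated data. One result on the list of pancreatic beta cell genes is not reported here.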

Additional observations from a re-analysis of the deposited data

Results flagged for a closer look

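Igfbp3 and Lyz1 differed between the libraries in opposite directions in Tac1-positive cells and in Muc2 barcodes. The ratio of NFKO over WT for Igfbp3 was 0.462 (0.394 to 0.542) in members and 8.80 (1.32 to 374) in Muc2 barcodes, the latter from few UMIs. For Lyz1 it was 2.93 (2.69 to 3.19) in members and 0.714 (0.709 to 0.719) in Muc2 barcodes. The difference between the sets was not tested. No group has 4 samples, so that no sample could be compared with the others of its group.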

How the results depend on the processing

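Each group is 1 library, so that sex, mice and preparation cannot be told apart from genotype. No paired analysis was possible because each group has 1 library. The cause of each change below was not tested. The ratio of the members' shares, 0.736, was 0.938 over every deposited barcode without quality limits and 0.559 over barcodes with 3 Chga or Chgb UMIs. With 3 Tac1 UMIs and no limit on the share, the Tph1 ratio of 1.19 was 1.47. Lower in NFKO were then 24 of 2930 genes instead of 52 of 3643. In members 14 of 2522 genes were 4-fold higher, instead of 94 of 3038. With Tac1 at 0.5% of UMIs or more, the Tph1 ratio was 1.08 and 207 of 3241 genes were 4-fold higher in members. In male-typed barcodes, with 165 WT and 17 NFKO members, the Tph1 ratio was 1.25. Of 3684 genes, 193 were then higher and 194 lower in NFKO. With size factors the Tph1 ratio was 1.09 and 53 of 3038 genes were 4-fold higher in members. With members over the Tph1 limit only, these values were 1.10 and 221 of 3221, and without mixed droplets 1.27 and 146 of 3163. Without the deepest 5% of kept barcodes the Tph1 ratio was 1.25. With no minimum CPM and 20 UMIs, 460 of 11503 genes were higher and 391 lower, and 428 of 13727 were 4-fold higher in members. More genes were tested there, so that these counts do not compare directly with the others. The ratio of Foxo1 lay between 0.738 and 1.18 under all alternatives, the lowest, 0.738 (0.573 to 0.950), with no limit on the Tac1 share. Among named genes called at 2-fold, 6 ratios changed sides. Hspb1 was at 0.938 with Tac1 at 0.5% or more. Lgals3 was at 0.657 and Zg16 at 0.273 in male-typed barcodes. Mptx2 was at 4.51 with no limit on the Tac1 share and at 1.06 without the member richest in it in each library, an alternative added after values were seen, which gives no value for Anxa1 and Ly6d. Pyy was at 0.433 with no hormone limit.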
